A study of Mus musculus with 12 samples.

Results

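The genes described here are 9 genes of the Notch signalling pathway, of 55401 genes in a table of read counts from mouse oocytes. They are the receptor genes *Notch1*, *Notch2* and *Notch3*, the ligand genes *Jag1* and *Jag2*, the transcription factor gene *Rbpj*, and the target genes *Hes1*, *Hey1* and *Hey2*. They were chosen by gene symbol for their part in signalling between the oocyte and its granulosa cells in early follicles, and the rule uses no measured value, although earlier results of these data were known when it was written. Each symbol matched 1 row of the table.

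The table holds 12 RNA sequencing libraries of oocytes from mice of the cross C57Bl/6j x CBA/J, aged 7 to 8 days. There were 4 groups of 3 libraries, from primordial or primary follicles of ovaries held in culture for 5 days. The medium held DMSO (the control) or dorsomorphin (DM), a small molecule that inhibits AMPK and also inhibits BMP type I receptors. The ovaries were fixed and embedded in paraffin, oocytes were cut from stained sections by laser capture microdissection, and their RNA was pooled for each stage and amplified before library preparation. The labels call the control "sham" and the material "in vivo", whereas the methods of the study describe cultured ovaries and a DMSO control, and the methods are followed here. No genotype was changed in any group. All 4 groups shared the culture, the fixation and the amplification, and no group of uncultured oocytes was analysed. The study describes the samples of a group as biologically independent pools of captured oocytes, and the labels do not tie them to animals. The p-values below measure the spread between these libraries.

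Notch receptors are read by cell contact. A Jagged or Delta ligand on 1 cell binds a receptor on its neighbour, the receptor is cut by ADAM proteases and then by the γ-secretase complex, and its freed intracellular part joins RBPJ on DNA to switch on repressor genes of the Hes and Hey families. In the early mouse ovary the pathway is known for a division of labour, with *Jag1* made by germ cells and *Notch2* by the pregranulosa cells around them, and for its part in breaking germ cell nests into single primordial follicles.

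Of the 9 genes, 7 had a promoter in the RefSeq table used here (assembly GRCm38.p6). They were *Notch1*, *Notch2*, *Notch3*, *Jag1*, *Jag2*, *Rbpj* and *Hey2*. The core letters of the RBPJ site, TGGGAA, were searched on both strands (TTCCCA on the other strand) in the 250 bases before each start. The Ikaros core GGGAA lies within the same letters. *Hey2* and *Rbpj* had a match, and the other 5 genes had none in this window. Among all 32851 RefSeq promoters of the same length, 21.6% held a match. The E-box CACGTG, the letters bound by Hes and Hey proteins and by many other factors, was in none of the 7 promoters and in 6.02% of all promoters. The matches are shown because *Rbpj* encodes the factor itself and *Hey2* is the target gene whose fitted differences were the largest. Each line gives 30 bases of the gene's strand, 5′ to 3′, with the matched letters in capitals. The *Hey2* match began 207 bases before the start, at chr10:30842973-30843002, minus strand. Those of *Rbpj* began 149 and 65 bases before its first listed start, at chr5:53590185-53590214 and chr5:53590269-53590298, plus strand. The annotated gene begins at chr5:53466152, so this listed start lies inside it. The second match lies in chr5:53590236-53590435, all 200 bases of which are in annotated exons.
Hey2: tgcgcggtggcaTTCCCAcgcctctgccaa
Rbpj: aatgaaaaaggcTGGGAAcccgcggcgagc
Rbpj: gacgctcgcattTTCCCAggacccctcctc

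The wider *Hey2* promoter, chr10:30842834-30843033 on the minus strand, holds no annotated exon. It is printed for the 200 bases that end 50 bases before the start, with the same match in capitals.
Hey2: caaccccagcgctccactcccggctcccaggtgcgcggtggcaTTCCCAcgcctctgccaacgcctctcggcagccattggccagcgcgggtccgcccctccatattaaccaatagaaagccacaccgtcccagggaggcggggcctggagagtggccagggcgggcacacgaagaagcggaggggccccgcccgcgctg
A match of 6 letters is a description of the sequence, and no binding was measured in these oocytes.

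Counts were made over whole genes, and the positions that follow are those of GENCODE M21 on GRCm38, the same build as mm10. *Notch1* lies at chr2:26457903-26516663, *Notch2* at chr3:98013527-98150361 and *Notch3* at chr17:32120820-32166852. *Jag1* lies at chr2:137081456-137116644 and *Jag2* at chr12:112907819-112929776. *Rbpj* lies at chr5:53466152-53657362, *Hes1* at chr16:30064384-30067796, *Hey1* at chr3:8663359-8667256 and *Hey2* at chr10:30832359-30842801. Exons of *Notch1* overlap those of *0610009E02Rik* and *Gm13568* on the opposite strand, and exons of *Notch3* overlap *Gm17276* there. Exons of *Notch2* overlap *Gm42820* on the same strand. Whether the counting used strand is not given in the sources used here, so reads in these overlaps may belong to either gene.

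The libraries held from 14034586 to 42639326 counts. A gene was taken as detected in a library above 3 counts, which is the limit that a count of 0 allows, and these limits cover counting error only. Levels are given as CPM, the count divided by the library's total count and multiplied by 1000000. Between 4206 and 10687 genes were detected per library, with 4670 to 5314 in the primary DM libraries. The oocyte markers *Ddx4*, a germ cell RNA helicase, and *Kit*, the receptor on oocytes, were detected in all 12 libraries, while the other 12 of 14 oocyte markers were each missing from at least 1 library. Of 12 granulosa cell markers, *Foxl2*, *Wt1* and *Inha* were detected in every library, and *Fshr*, *Hsd17b1* and *Cyp19a1* in none. Of 9 stroma and theca markers 5 were detected in every library, among them the collagen genes *Col1a1*, *Col1a2* and *Col3a1*. Of 8 endothelial and blood markers none was in every library, and *Tek*, *Adgre1*, *Hbb-bs* and *Hba-a1* were in none. Transcripts of granulosa cell and stroma markers were thus read in every library beside those of oocytes.

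Notch pathway genes were present in every library, though the set detected varied. Between 3 and 8 of the 9 genes were detected in a library. Over 9 genes and 12 libraries there were 108 values, of which 79 were above 3 counts, 45 were at 10 CPM or more and 13 were 0. *Notch2* and *Jag1* were detected in all 12 libraries, *Notch1* in 11, *Jag2* and *Hey2* in 10, *Hes1* in 9, *Notch3* in 7, *Rbpj* in 6 and *Hey1* in 2. Over the whole table, 3.61% of genes were detected in all 12 libraries and 11.2% in at least 6. These shares are of all 55401 genes, of which 37673 had 0 counts in every library.

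Per kilobase of exon, the median level over the 12 libraries was highest for *Jag1*, at 13.7 CPM per kb. *Notch2* followed at 10.4 and *Hes1* at 7.59 CPM per kb. *Notch1* was at 1.15, *Jag2* at 0.500, *Hey2* at 0.198, *Notch3* at 0.107 and *Rbpj* at 0.0177 CPM per kb, and the median of *Hey1* was 0. The means gave another order, with *Jag1* at 72.8, *Hes1* at 49.1, *Notch2* at 24.3, *Hey2* at 19.4 and *Jag2* at 12.7 CPM per kb. The ranges of all neighbours in this order overlapped, so no gene stood apart from the next beyond the spread over libraries.

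**Figure D1:**
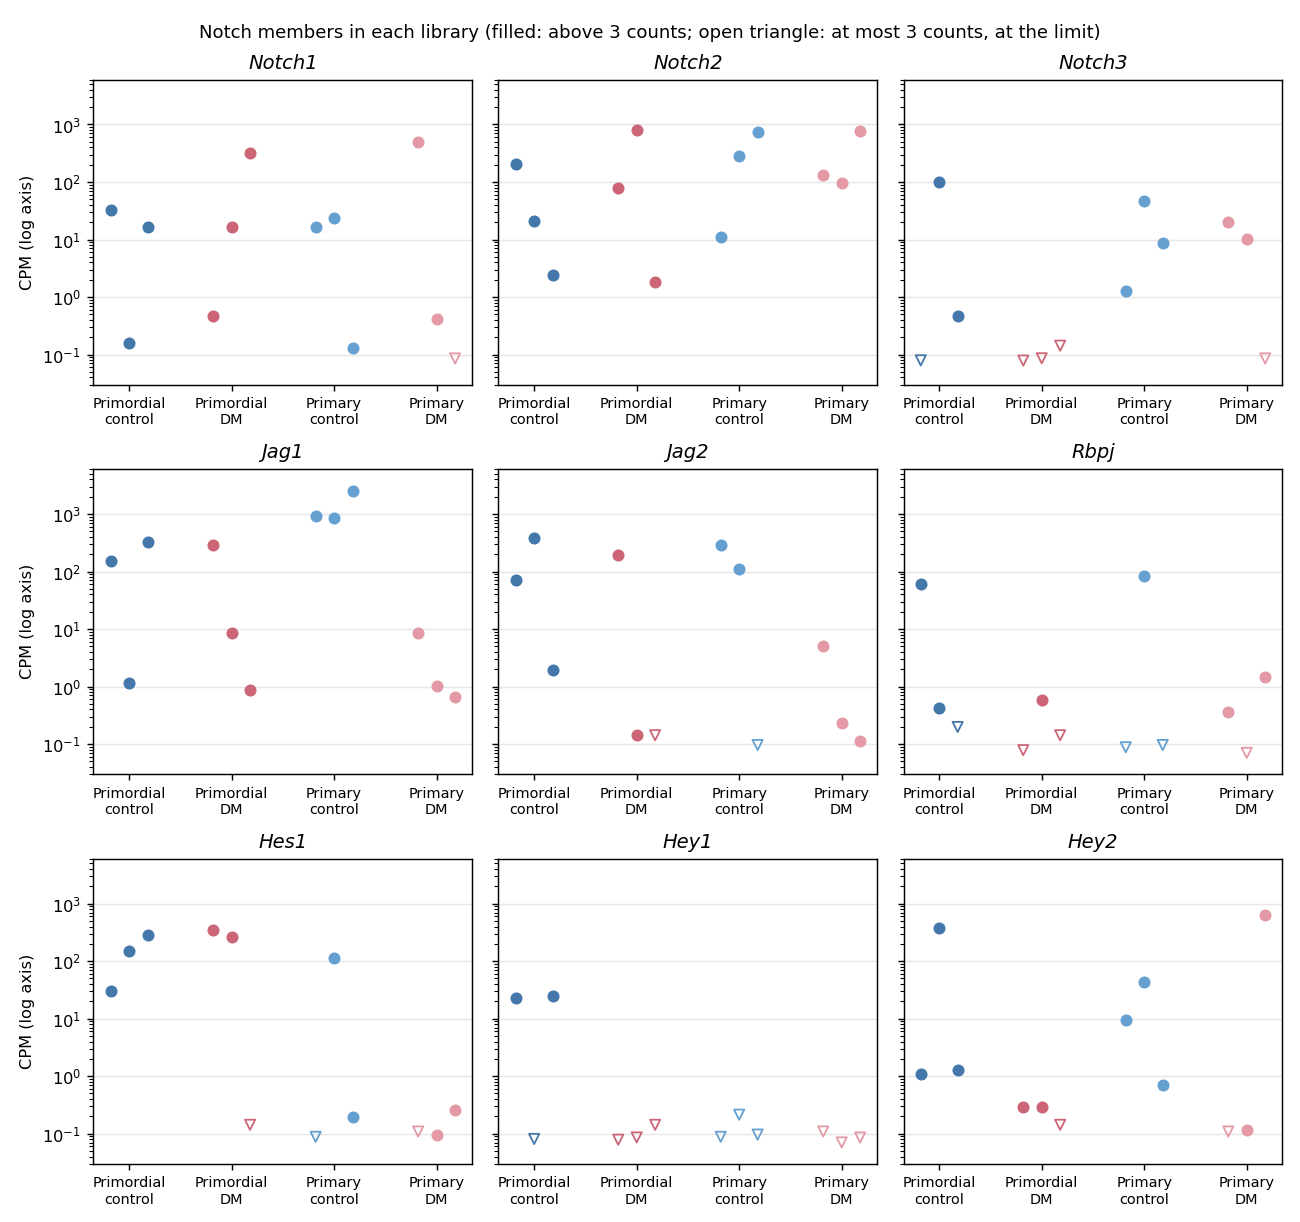
Level of each of the 9 Notch genes in CPM (log axis) in the 12 libraries, 3 per group; filled circles are libraries above 3 counts and open triangles, drawn at the CPM of 3 counts, are libraries at or below it. *Jag1* lies between 867 and 2520 CPM in the primary controls and below 10 CPM in the primary DM libraries, while most other genes spread over several powers of 10 within a group.

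Within groups, the spread was wide for nearly every gene. In the primordial controls, 1 library held at least 90% of the group's summed CPM for 3 of 9 genes detected in that group. This was so for 4 of 7 genes in the primordial DM group, for 2 of 8 in the primary controls and for 3 of 8 in the primary DM group. Among all genes detected in a group, the share with such a library was 46.7%, 54.1%, 55.4% and 60.4%, in the same order of groups. The biological coefficient of variation fitted by edgeR was 1.76 for DM against control in primordial and 1.86 in primary follicles.

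The first comparison asks whether DM moved Notch genes in oocytes of primordial follicles. No Notch gene passed the threshold of an adjusted p under 0.05 (quasi-likelihood test of edgeR, adjusted after Benjamini and Hochberg), of 7 genes with enough counts to be tested. Over all 6699 genes tested, 1 gene or 0.0149% passed. At an unadjusted p under 0.05 it was 1 of the 7 Notch genes, *Hey2*, and 7.33% of all genes tested. With DESeq2 as the tool 1 Notch gene passed, *Hey1*, against 13.1% of the genes that DESeq2 gave an adjusted p, and 5 of the 9 Notch genes got none. Of the 7 genes, 3 had a higher and 4 a lower fitted value with DM, with a median log2 fold change of -0.32, beside a median of 0.13 over all genes tested.

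The same question in oocytes of primary follicles gave 0 of 7 Notch genes at an adjusted p under 0.05 with edgeR, and 0 of 4181 genes in all (0%). *Jag1* had an unadjusted p under 0.05, and so had 12.2% of all genes. DESeq2 called none of the 4 Notch genes to which it gave an adjusted p, and it called 22.1% of all such genes. The median log2 fold change was -0.36 over the 7 Notch genes and 0.31 over all genes tested.

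The stages were then compared within each treatment. With edgeR, 0 of 8 Notch genes passed an adjusted p under 0.05 between stages in controls, beside 0% of all 6726 genes tested, and 0 of 5 between stages with DM, beside 0% of 4331 genes. For the difference between the effects of DM at the 2 stages it was 0 of 8 Notch genes and 0% of 8500 genes. The counts at an unadjusted p and with DESeq2 are given at the genes concerned.

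**Figure D2:**
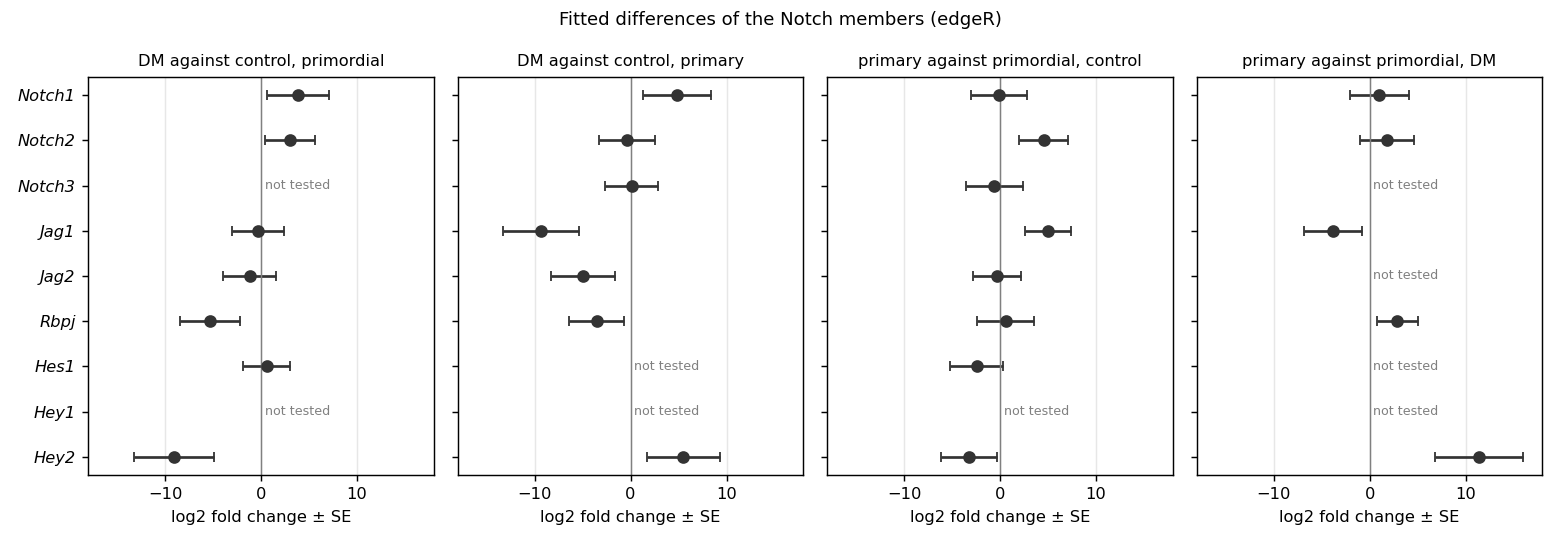
Log2 fold change ± SE of each Notch gene in 4 comparisons of 3 against 3 libraries, fitted with edgeR; genes marked not tested had too few counts. The estimates reach -9.35 for *Jag1* with DM in primary follicles and 11.41 for *Hey2* between stages with DM, with standard errors between 2.12 and 4.56, and no gene has an adjusted p under 0.05.

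Among the receptors, *Notch2* was the one found in every library. In primordial follicles its counts were 7719, 774 and 37 in the controls and 2951, 27879 and 38 with DM. In primary follicles they were 372, 3936 and 23024 in the controls and 3599, 4019 and 27261 with DM. Each group thus held libraries far apart from each other, and the groups overlapped at both stages. The mean level was 75.8 ± 111 CPM (SD, n = 3) in primordial controls and 293 ± 440 CPM with DM. It was 344 ± 369 CPM in primary controls and 334 ± 384 CPM with DM. The log2 fold change with DM was 2.98 ± 2.59 (SE) in primordial and -0.36 ± 2.94 in primary follicles, with adjusted p-values of 0.791 and 0.955 from edgeR. Without the primordial DM library 2, which held 91.0% of its group's CPM, the primordial estimate was -0.23.

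*Notch2* had a higher fitted level in primary than in primordial controls, by 4.52 ± 2.52 on the log2 scale. The adjusted p was 0.749 with edgeR, and the value was 1.09 without primary control 3. Under DM the difference between stages was 1.80 ± 2.84 with an adjusted p of 0.745. Neither exceeded the spread between libraries. Since *Notch2* is known as a pregranulosa gene, the summed CPM of the 12 granulosa markers is given beside it: 2583, 1616 and 805 CPM in primordial controls, and 5225, 832 and 7451 CPM in primary controls. Their part in the *Notch2* values was not tested. In pooled material of this kind, fewer cells of a type and less RNA per cell cannot be told apart.

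*Notch1*, a receptor known from T cell development, was high in 2 single libraries. Its counts were 1232, 6 and 253 in primordial controls and 18, 574 and 6715 with DM. They were 552, 331 and 4 in primary controls and 13766, 18 and 3 with DM. The primordial DM library 3 and the primary DM library 1 held 95.0% and 99.9% of their groups' CPM, and the other DM libraries lay within the range of the controls or below it. The log2 fold change with DM was 3.84 ± 3.23 in primordial and 4.83 ± 3.58 in primary follicles, with adjusted p-values of 0.781 and 0.483 from edgeR. Leaving out the single high library turned these to -0.15 and -3.14.

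*Notch3*, a receptor best known from vascular smooth muscle, was at or near 0 in primordial follicles with DM. Its counts there were 1, 0 and 1, against 1, 3682 and 7 in the controls. In primary follicles they were 43, 650 and 266 in the controls and 552, 443 and 1 with DM. The primordial groups overlapped, since control 1 was as low as the DM libraries, and the contrast rested on control 2. In summed counts *Notch3* was 1929-fold lower with DM in primordial follicles, with an exact 95% interval of 534 to 15937 that covers counting error only. Without control 2 the ratio was 7.11, with an interval of 1.42 to 68.7. edgeR did not test this gene there, and in primary follicles its log2 fold change with DM was 0.10 ± 2.73 (adjusted p = 0.985).

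Under DM, *Notch3* was higher in 2 of 3 primary libraries than in any primordial library, with a ratio of summed counts of 446 and a counting interval of 123 to 3685. Without primary DM library 1 this ratio was 269, with an interval of 74.0 to 2228. DESeq2 gave an adjusted p of 0.000328 for this difference between stages, whereas the adjusted p-values over all alternatives that gave one ran from there to 0.407. The difference between the effects of DM at the 2 stages was 10.54 ± 4.84 on the log2 scale, with an unadjusted p of 0.0294 and an adjusted p of 0.223 in edgeR. It was 2.80 without primordial control 2. Between the stages in controls the fitted difference of -0.59 ± 2.95 became 7.13 without the same library.

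The ligand gene *Jag1* separated the groups of primary follicles. The controls had 31088, 12168 and 78398 counts, and the DM libraries had 231, 43 and 23. All 3 DM libraries were below all 3 controls, and the lowest control, at 867 CPM, was far above the highest DM library, at 8.40 CPM. The mean was 1433 ± 941 CPM (SD, n = 3) in the controls and 3.35 ± 4.37 CPM with DM. The log2 fold change was -9.35 ± 3.95 with an unadjusted p of 0.0180 and an adjusted p of 0.395 in edgeR, so it did not pass over all genes. It stayed between -10.39 and -6.41 when each library was left out in turn, with the value nearest to 0 without control 3. DESeq2 estimated -9.22 and gave no p. Among all genes tested, 10.4% were lower in every DM library than in every control in TMM-normalised CPM.

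The marker sums of these 2 groups overlapped, which does not show that their cell content was alike. The summed CPM of the 12 granulosa markers was 5225, 832 and 7451 in the primary controls and 879, 11211 and 1056 with DM. Most of the sum in DM library 2 was *Foxl2*, with 474295 counts. The stroma and theca markers summed to 2648, 3031 and 6492 CPM in the controls and 12531, 3342 and 2177 CPM with DM. For endothelial and blood markers it was 34.8, 0.713 and 1.09 CPM against 2.00, 25.0 and 0.143 CPM. The sum of the 14 oocyte markers was 571, 1405 and 11.3 CPM in the controls and 56.4, 1115 and 88.0 CPM with DM, and 8 to 12 of these markers were detected per control against 5 to 9 per DM library. Their part in the *Jag1* difference was not tested.

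In primordial follicles *Jag1* had 5701, 43 and 4955 counts in the controls and 11138, 296 and 18 with DM. These groups overlapped, and the log2 fold change of -0.32 ± 2.74 (adjusted p = 0.985, edgeR) was -4.42 without DM library 1 and 1.19 without control 3. In the fit of all libraries, the effects of DM at the 2 stages differed by -8.76 ± 3.62 on the log2 scale, with an unadjusted p of 0.0157 and an adjusted p of 0.183. In the controls, all 3 primary libraries were above all 3 primordial ones. That difference was 5.01 ± 2.40 with an unadjusted p of 0.0368 and an adjusted p of 0.749, and it was 2.57 without primary control 3. At an unadjusted p under 0.05, *Jag1* was 1 of 8 Notch genes tested in that comparison, beside 6.44% of all genes, and 1.92% of all genes were higher in every primary than in every primordial control. With DM the difference between stages was -3.81 ± 3.05, and it turned to 0.50 without primordial DM library 1.

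*Jag2*, the second Jagged ligand, had 2705, 14187 and 29 counts in primordial controls and 7481, 5 and 1 with DM. The primary controls had 9875, 1557 and 3 counts, and the primary DM libraries 139, 10 and 4. Each group had a library near the detection limit except the primordial controls, and the groups overlapped. The log2 fold change with DM was -1.20 ± 2.80 in primordial and -4.96 ± 3.34 in primary follicles, with adjusted p-values of 0.951 and 0.451 from edgeR. The primary value ran from -7.18 to -3.50 when libraries were left out, and the primordial value from -10.27 without DM library 1 to 1.81 without control 2. The adjusted p for the difference between these effects was 0.645.

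**Figure D3:**
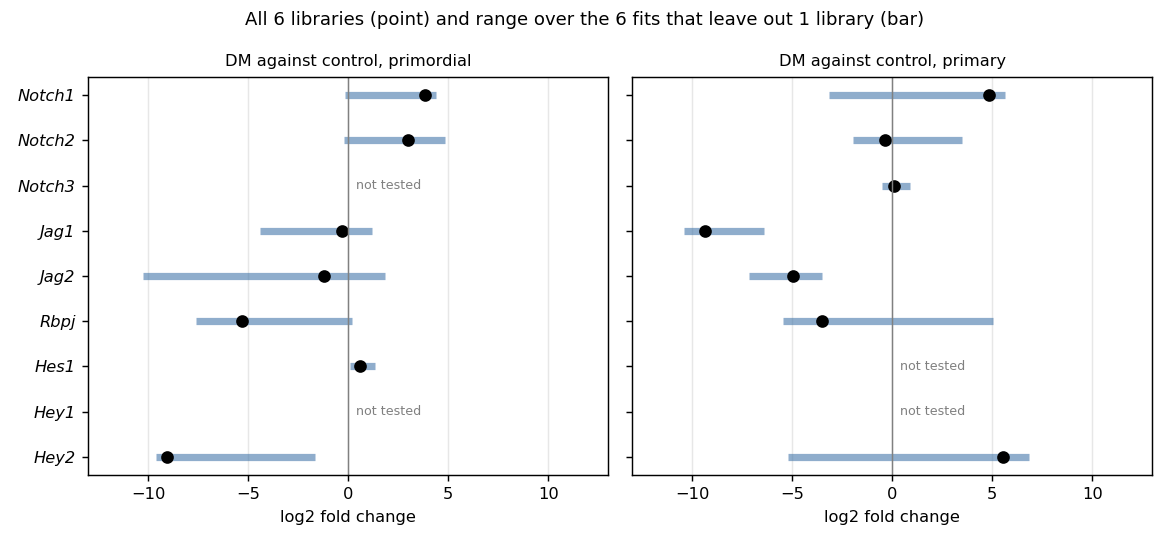
Log2 fold change with DM of each Notch gene, fitted with all 6 libraries of a stage (points) and its range over the 6 fits that leave out 1 library (bars). In primary follicles *Jag1* and *Jag2* stay below 0. In primordial follicles *Hey2* stays below 0 and *Hes1* above it. The bars of *Notch1*, *Notch2* and *Rbpj* cross 0 at both stages.

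*Rbpj*, which encodes the DNA-binding partner of all Notch receptors, was detected in only 6 libraries. It had 2338, 16 and 0 counts in primordial controls and 2, 20 and 1 with DM. At the primary stage the controls had 3, 1172 and 0 counts and the DM libraries 10, 1 and 51. Only 2 of the 12 libraries reached 10 CPM, primordial control 1 at 61.8 CPM and primary control 2 at 83.5 CPM, and both were controls. The log2 fold change with DM was -5.32 ± 3.17 in primordial and -3.51 ± 2.86 in primary follicles, with adjusted p-values of 0.663 and 0.517 from edgeR. Without those 2 libraries, in turn, the values were 0.19 and 5.02.

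The target genes differed among themselves. *Hes1*, a repressor that answers Notch in many tissues, was high in primordial and low in most primary libraries. Its counts were 1161, 5581 and 4379 in primordial controls and 13189, 9309 and 2 with DM, and 3, 1621 and 6 in primary controls and 3, 4 and 9 with DM. By library, 5 of 6 primordial and 1 of 6 primary libraries were above 10 CPM. The mean was 157 ± 130 CPM in primordial controls, 204 ± 181 CPM with DM, 38.6 ± 66.6 CPM in primary controls and 0.153 ± 0.0899 CPM with DM.

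The difference of *Hes1* between the stages in the controls was -2.44 ± 2.78 on the log2 scale with an adjusted p of 0.906 in edgeR, and -7.53 without primary control 2. With DM, edgeR did not test the gene. DESeq2 gave a log2 fold change of -6.98 ± 2.27 with an adjusted p of 0.0166, and the adjusted p-values over the alternatives ran from there to 0.388. The groups overlapped through primordial DM library 3, with 2 counts. This library had 13.2 CPM of granulosa markers and 6.84 CPM of oocyte markers, both the lowest of the 12 libraries, and 3 of the 9 Notch genes, also the fewest. Its 5216 genes detected and 3135 CPM of stroma and theca markers lay within the range of the other libraries. DM against control in primordial follicles gave *Hes1* a log2 fold change of 0.59 ± 2.45 (adjusted p = 0.973, edgeR).

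*Hey1*, a target known from the endocardium and vessels, was detected in 2 libraries only. These were primordial controls 1 and 3, with 850 and 381 counts, and the other 10 libraries had 0, which allows up to 3 counts each. Against this limit per library, *Hey1* was at least 155-fold lower with DM in primordial follicles, or at least 110-fold without control 3. Primary controls were at least 120-fold below primordial controls, or at least 84.6-fold without the same library. Since primordial control 2 was also at 0, both comparisons overlapped. With its count filter and no library left out, edgeR tested the gene in no comparison. Without the filter it gave log2 fold changes of -11.56 ± 5.26 for DM in primordial follicles (adjusted p = 0.457) and -11.46 ± 5.12 for stage in controls (adjusted p = 0.509), values that depend on the prior count. DESeq2 gave it an adjusted p of 0.0123 for DM in primordial follicles, of alternatives from 0.0123 to 0.654. For the stages in controls it gave 0.0392, of alternatives from 0.0392 to 0.843, beside 5.77% of all genes called.

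*Hey2*, a related repressor that acts in heart and vessel development, had 42, 14146 and 19 counts in primordial controls and 11, 10 and 2 with DM. The primary controls had 320, 613 and 22 counts, and the primary DM libraries 2, 5 and 22187. The primordial groups did not overlap, and 8.81% of all genes tested were likewise lower in every DM library after TMM normalisation. DM gave a log2 fold change of -9.05 ± 4.16 with an unadjusted p of 0.0298 and an adjusted p of 0.658 in edgeR. Without control 2 it was -1.68, so its size rested on that library, which also held the only high *Notch3* count of its group. In primary follicles the estimate was 5.51 ± 3.81 (adjusted p = 0.462), and -5.24 without DM library 3.

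With DM, the fitted level of *Hey2* was higher in primary than in primordial oocytes by 11.41 ± 4.56, with an unadjusted p of 0.0149 and an adjusted p of 0.286. Of the 3 primary DM libraries, 2 had only 2 and 5 counts, and without the other one, which had 632.6 CPM, the value was 0.43. At an unadjusted p under 0.05 this was 1 of 5 Notch genes tested, beside 17.2% of all genes. DESeq2 called 2 of the 5 Notch genes to which it gave an adjusted p in this comparison, *Notch3* and *Hes1*, and 24.6% of all such genes. The effects of DM on *Hey2* at the 2 stages differed by 14.89 ± 4.93 (unadjusted p = 0.00255, adjusted p = 0.118), and by 4.02 without primary DM library 3. For this difference between stages 3 of 8 Notch genes had an unadjusted p under 0.05, *Hey2*, *Jag1* and *Notch3*, beside 18.9% of all genes. DESeq2 called 1, *Notch3*, beside 11.5% of all genes.

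**Figure D4:**
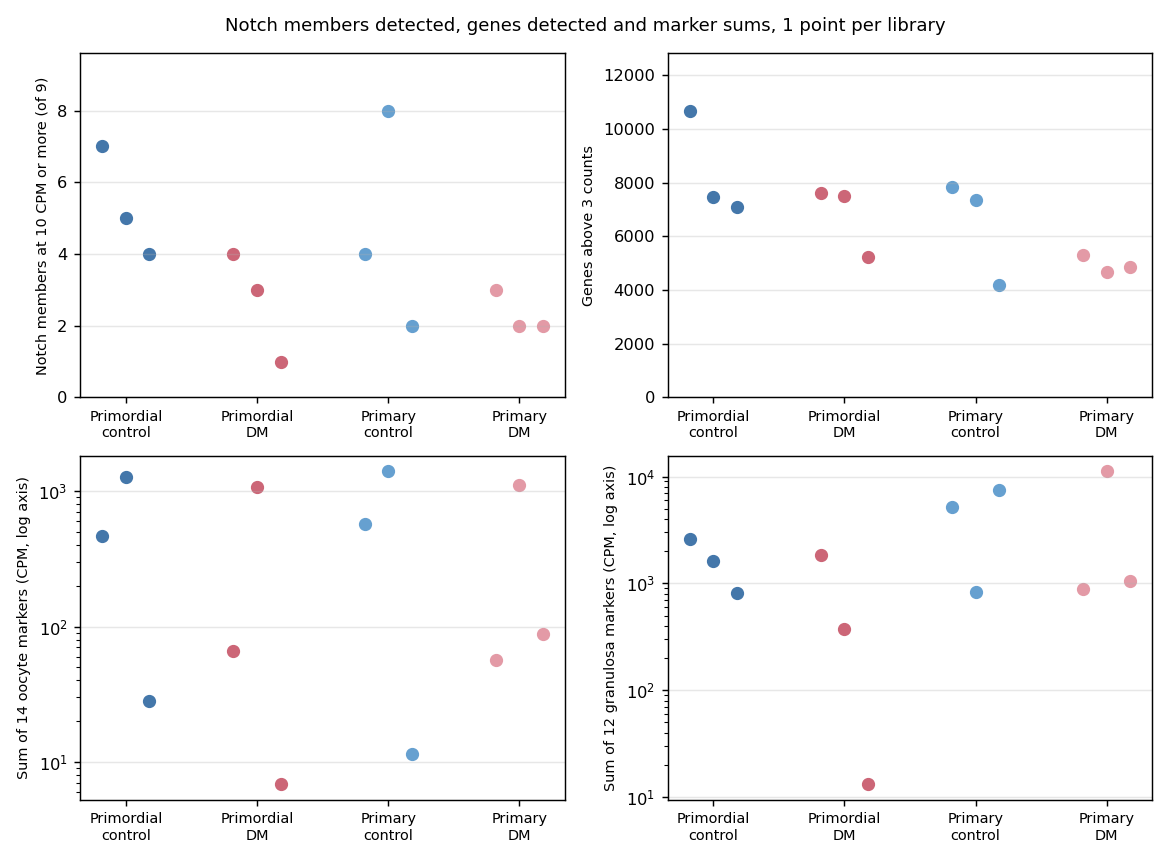
Number of Notch genes at 10 CPM or more, number of genes above 3 counts, and summed CPM of 14 oocyte and 12 granulosa markers (log axes), 1 point per library and 3 per group. Notch genes at 10 CPM or more number 4 to 7 in primordial controls, 1 to 4 in primordial DM, 2 to 8 in primary controls and 2 to 3 in primary DM libraries. The ranges overlap between treatments at each stage. The primordial DM library with 1 such gene also has the lowest sums of both marker lists.

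Across the 12 libraries, the 9 genes did not rise and fall as 1 group. Spearman correlations between pairs of the 8 genes detected in at least 6 libraries ran from -0.64 for *Notch1* with *Hey2* to 0.36, which was reached by *Jag1* with *Jag2* and by *Notch3* with *Hey2*. These are descriptions over 12 libraries that share their amplification and differ in depth. The genes most like each of them, of 6199 genes compared, were *Usp25* and *Ncoa4* for *Notch1* (0.92 and 0.90), *Lbh* for *Notch2* (0.87) and *Capzb* and *Hnrnpa3* for *Notch3* (0.81 and 0.80). For the ligands they were *Pbx2* and *Eprs* for *Jag1* (0.92 and 0.87) and *Atf2* and *Gm38393* for *Jag2* (0.91 each). They were *Phlpp2* and *Arhgap31* for *Rbpj* (0.83 each), *Scfd1* and *Ankrd13c* for *Hes1* (0.94 and 0.93) and *Atg4b* and *Klhl12* for *Hey2* (0.90 each). None of these is among the 9 genes or on the list of further pathway genes. They were picked for the highest correlations among the 6199 genes over 12 libraries, and these values were not tested.

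The other 50 genes of the pathway list are described by role, with no test between roles. All 6 corepressor genes, 6 of 8 coactivator genes and 7 of 10 genes of receptor cleavage were detected in at least 6 libraries. So were 5 of 8 genes of receptor turnover, 2 of 4 of ligand ubiquitination and 1 of 5 of glycosylation. None of the 3 Delta-like ligand genes reached that number, nor did *Notch4*, and of 5 further target genes only *Heyl* did. In all, 28 of the 50 genes were detected in at least 6 libraries, 11 in all 12, and 5 in none, and 4 of these 5 had no count at all.

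Among the 11 genes detected in all libraries, the 5 with the highest median CPM were *Crebbp* and *Ep300*, which encode histone acetyltransferases, *Ncor1*, which encodes a corepressor of RBPJ, *Mib1*, whose product ubiquitinates Notch ligands, and *Adam10*, the protease that makes the first cut of the bound receptor. Their medians over the 12 libraries were 2241 CPM for *Crebbp*, 648 for *Ncor1*, 444 for *Mib1*, 281 for *Adam10* and 272 for *Ep300*. *Adam10* had 5921 to 21949 counts in primordial controls and 13589 to 39498 in primordial DM libraries. In primary libraries it had 21 to 124 counts, except in control 2 with 5635. Between stages its log2 fold change was -2.19 ± 2.42 in controls (adjusted p = 0.906, edgeR). With DM it was -7.36 ± 3.69 (unadjusted p = 0.0505, adjusted p = 0.290, edgeR). The DM groups did not overlap, as for 12.1% of all genes in that direction. DESeq2 gave an adjusted p of 0.0192 there, of alternatives from 0.0192 to 0.977.

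**Figure D5:**
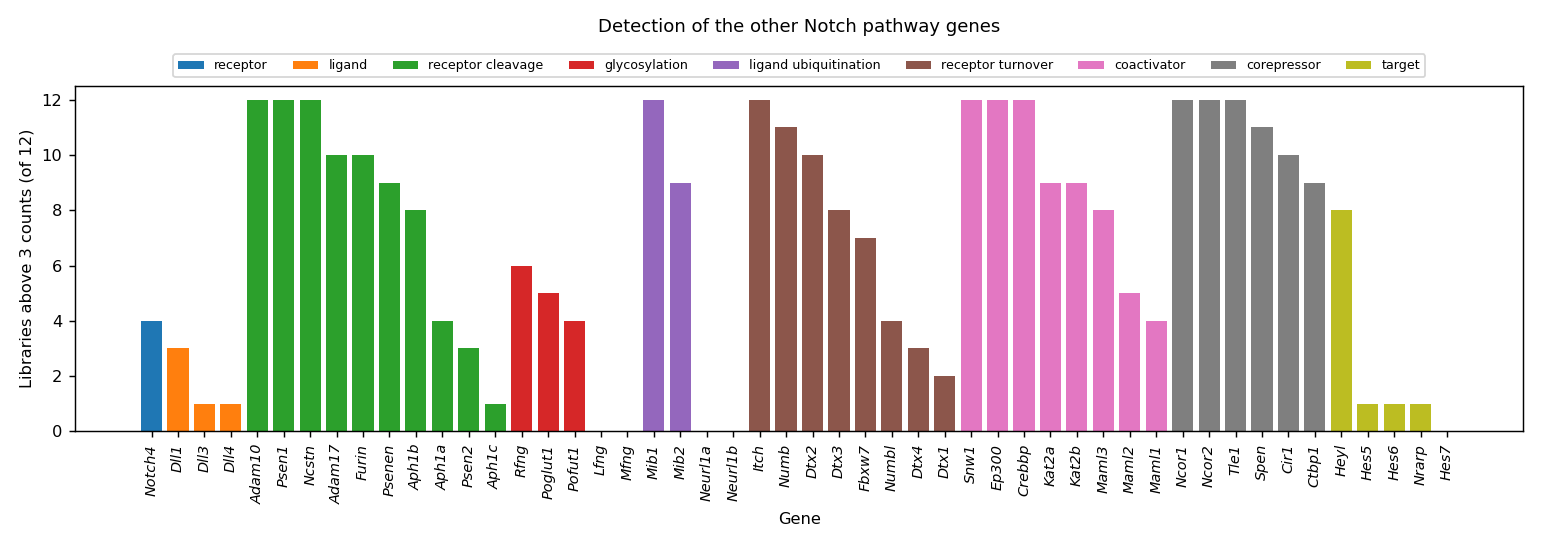
Number of the 12 libraries with more than 3 counts for each of the 50 other Notch pathway genes, coloured by role. Of the corepressors 3 of 6 reach 12 libraries, of the coactivators 3 of 8 and of the cleavage genes 3 of 10. So does 1 gene each of ligand ubiquitination and receptor turnover. The Delta-like ligands stay at 3 or fewer, and *Lfng*, *Mfng*, *Neurl1a*, *Neurl1b* and *Hes7* are at 0.

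None of these genes passed an adjusted p under 0.05 with edgeR in any of the 5 comparisons, of 31, 23, 27, 24 and 35 tested in the order of DM in primordial, DM in primary, stage in controls, stage with DM, and the difference between the DM effects. At an unadjusted p under 0.05 there were 1, 3, 1, 7 and 6. DESeq2 called 1, 3, 2, 10 and 2, of 25, 14, 20, 22 and 24 with an adjusted p. Over all genes the unadjusted share was 7.33%, 12.2%, 6.44%, 17.2% and 18.9% in the same order, and the share called by DESeq2 was 13.1%, 22.1%, 5.77%, 24.6% and 11.5%.

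For DM in primordial follicles the gene was *Fbxw7*, whose product marks the Notch intracellular part for degradation. It had 3316, 3 and 4349 counts in the controls and 2, 13 and 2 with DM, a log2 fold change of -8.91 ± 4.21 with an unadjusted p of 0.0344 and an adjusted p of 0.658 (edgeR). The groups overlapped through control 2. DESeq2 gave *Fbxw7* an adjusted p of 0.00425, and the alternatives ran from there to 0.999.

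For DM in primary follicles they were *Ncstn* and *Psenen*, which encode subunits of γ-secretase, and *Heyl*, a target gene. *Ncstn* had 441, 5651 and 26700 counts in the controls and 5, 14 and 9 with DM, with a log2 fold change of -10.78 ± 4.58 (unadjusted p = 0.0187). *Psenen* had 360, 7848 and 15 counts in the controls and 3 in each DM library, with a log2 fold change of -9.02 ± 4.05 (unadjusted p = 0.0258). Both genes, like *Jag1*, were lower in every DM library than in every control in TMM-normalised CPM, as were 10.4% of all genes tested. The adjusted p of both was 0.395 in edgeR. Exons of *Ncstn* overlap those of *Copa*, and exons of *Psenen* those of *U2af1l4* and *Gm49396*, on the opposite strand.

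*Heyl* went the other way, and its fitted differences with DM had opposite signs at the 2 stages. The primary controls had 29, 2 and 0 counts and the primary DM libraries 2163, 32 and 184. In plain CPM these groups just overlapped, at 0.851 in control 1 and 0.750 in DM library 2. After TMM normalisation every DM library was higher than every control, as for 120 of the 4181 genes tested. Its fitted difference was 7.50 ± 3.63 with an unadjusted p of 0.0387 and an adjusted p of 0.396 (edgeR). DESeq2 gave this difference an adjusted p of 0.000903, and the alternatives ran from there to 0.999. The primordial controls had 1053, 67 and 15 counts and the primordial DM libraries 0, 10 and 0. Every DM library was lower, as for 8.81% of all genes tested there after TMM normalisation. The primordial difference was -5.60 ± 2.98 with an adjusted p of 0.658 in edgeR. The difference between these effects was 13.45 ± 5.20 on the log2 scale, with an unadjusted p of 0.00965 and an adjusted p of 0.163 in edgeR. DESeq2 estimated it at 14.59 ± 3.18 and gave an adjusted p of 0.000263, of alternatives from 0.000263 to 0.761.

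Between the stages in controls the gene was *Dtx3*, which encodes a Deltex protein, a regulator of receptor trafficking. It had 2209, 4 and 1290 counts in primordial and 1, 6 and 0 in primary controls, with a log2 fold change of -8.33 ± 4.08 (unadjusted p = 0.0411, adjusted p = 0.749, edgeR). The groups overlapped. With DESeq2 the adjusted p of *Dtx3* was 0.0224, the lowest of alternatives that reached 1.00.

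With DM, *Ncstn*, *Psenen* and *Numb* were the 3 lower and *Heyl*, *Pofut1* and *Fbxw7* the 3 higher genes in primary oocytes by smallest unadjusted p, between 0.0197 and 0.0455, each with an adjusted p of 0.286 in edgeR. DESeq2 called 4 of these 6, *Ncstn* (adjusted p = 0.0206), *Psenen* (0.0302), *Heyl* (0.00157) and *Fbxw7* (0.00924), and over the alternatives the adjusted p of each reached 0.977. *Numb* encodes an inhibitor of Notch and *Pofut1* the enzyme that adds fucose to the receptor. *Psenen* had 244, 644 and 827 counts in primordial DM libraries and 3 in each primary DM library, and these groups did not overlap, as for 12.1% of all genes in that direction. *Numb* rested on 1 library, with 25, 8 and 17502 counts in primordial and 10, 16 and 12 in primary oocytes, and its log2 fold change of -8.28 turned to 1.41 without the third. *Pofut1* had 0, 11 and 0 counts in primordial and 0, 1737 and 13 in primary oocytes, with a value of 9.12 that was 2.10 without primary DM library 2.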

How the data were processed

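The authors deposited 1 table of raw counts per gene, without normalization, for 12 libraries. The submitters' processing notes name Trim Galore, STAR, featureCounts and mm10, whereas the methods of the paper name TopHat2. Both the TruSeq RNA Access kit and Smart-seq II are described for library preparation, so it is open which of them set the part of a transcript that was read. Of 55401 identifiers, 55141 were matched to a symbol. Every pair of libraries within a group differed far beyond sampling noise (chi-square of at least 1588 per degree of freedom), and each was kept as 1 sample.

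Counts were fitted in R 4.3.3 with edgeR 4.0.16 (filterByExpr, TMM, glmQLFit and glmQLFTest, prior count 0.125), on the libraries of the 2 groups compared or on all 12 for the interaction of stage and DM. P-values were adjusted after Benjamini and Hochberg over all genes tested, with a threshold of 0.05. The SE of a log2 fold change is its size divided by the square root of F. Alternatives were DESeq2 1.42.0, its size factors or plain library sizes in edgeR, other count filters (none, or 10 counts in every library), 1 fit of all 12 libraries, a replicate block, an unadjusted p, and leaving out each library. The code was tested on simulated data. Tables were made with Python 3.11.15 and SciPy 1.17.1.

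The 9 genes, the 50 further pathway genes and the marker lists were chosen with earlier results of these data known. Of the further genes, those with an unadjusted p under 0.05 are named, up to 3 in each direction per comparison of 2 groups, and the 5 detected in the most libraries, with ties settled by the larger median CPM. A result of the comparison of patterns across libraries is not reported here. Precision is limited by depth (14034586 to 42639326 counts) and by 3 libraries per group.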

Additional observations from a re-analysis of the deposited data

How the results depend on the processing

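No Notch gene passed an adjusted p under 0.05 in any comparison with any setting of edgeR. DESeq2 called 1 of 4 Notch genes with an adjusted p for DM in primordial follicles and 0 of 4 for DM in primary follicles. It called 1 of 5 for stage in controls, 2 of 5 for stage with DM and 1 of 6 for the interaction. At an unadjusted p under 0.05 the counts were 1, 1, 1, 1 and 3 of 7, 7, 8, 5 and 8 in that order. Of the other pathway genes DESeq2 called 1, 3, 2, 10 and 2 of 25, 14, 20, 22 and 24. An unadjusted p under 0.05 was reached by 1, 3, 1, 7 and 6 of 31, 23, 27, 24 and 35. Over all genes DESeq2 called 13.1%, 22.1%, 5.77%, 24.6% and 11.5%. The unadjusted share over all genes was 7.33%, 12.2%, 6.44%, 17.2% and 18.9%. Of the 11 values of other pathway genes named in the comparisons of 2 groups, DESeq2 called 7. These 11 had been picked by their unadjusted p in edgeR on the same counts, so this number is no separate support. With TMM the median log2 fold change of all genes was 0.13, 0.31, -0.31, 0.35 and -0.42. It was -0.43, -0.96, -0.50, -0.96 and -1.25 with library size alone, and 0.56, 2.04, -0.03, 2.04 and 0.71 with the size factors of DESeq2. At an unadjusted p under 0.05, 166 genes were higher and 325 lower for DM in primordial follicles, against 71 and 373 with library size alone and 296 and 292 with DESeq2's size factors. For DM in primary follicles these pairs were 169 and 339, 74 and 399, and 392 and 262. For stage in controls they were 201 and 232, 61 and 179, and 383 and 217. For stage with DM they were 240 and 506, 120 and 722, and 472 and 159.

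Of 35 log2 fold changes of Notch genes, 3 turned in sign with another scaling or tool. *Notch3* for DM in primary follicles became -0.98 with library size alone. Between stages in controls, *Notch1* became 0.051 with DESeq2 and 0.018 with its size factors, and *Notch3* became 1.08 and 1.45. The cause was not tested.

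The labels do not say whether same-numbered libraries are paired. The correlations of the deviations of same-numbered libraries ran from -0.04 to 0.03. With a spread this wide between libraries, such values cannot exclude pairing. With the replicate block no Notch gene was called, and 11 of the 35 values turned in sign. For DM in primordial follicles *Jag1* became 0.82. For DM in primary follicles *Notch1* became -0.45, *Notch2* 1.54, *Rbpj* 2.56 and *Hey2* -4.20. Between stages in controls *Notch3* became 4.52, *Rbpj* -0.21 and *Hey2* 0.92, and between stages with DM *Notch1* became -3.03. For the interaction *Notch1* became -2.67 and *Jag2* 0.97. The cause was not tested.

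When each library was left out in turn, 21 of the 35 values changed sign at least once, so these directions depended on single libraries. For DM in primordial follicles the ranges were -0.15 to 4.40 for *Notch1*, -0.23 to 4.81 for *Notch2*, -4.42 to 1.19 for *Jag1*, -10.27 to 1.81 for *Jag2* and -7.61 to 0.19 for *Rbpj*. For DM in primary follicles they were -3.14 to 5.63 for *Notch1*, -1.99 to 3.48 for *Notch2*, -0.54 to 0.89 for *Notch3*, -5.48 to 5.02 for *Rbpj* and -5.24 to 6.82 for *Hey2*. Between stages in controls they were -0.62 to 0.51 for *Notch1*, -1.18 to 7.13 for *Notch3*, -2.01 to 2.46 for *Jag2*, -7.46 to 6.22 for *Rbpj* and -4.23 to 4.06 for *Hey2*. Between stages with DM they were -7.06 to 5.23 for *Notch1* and -4.97 to 0.50 for *Jag1*. For the interaction they were -6.73 to 5.07 for *Notch1*, -5.12 to 0.77 for *Notch2*, -6.68 to 5.41 for *Jag2* and -3.20 to 10.48 for *Rbpj*. Of the named values of other pathway genes, *Numb* between stages with DM ran from -8.93 to 1.41. With the filter of 10 counts in every library, 11 of the 35 values could be fitted.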
